A study of Mus musculus with 7 samples.

Results

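The mRNAs described here are those of ferritin heavy chain (Fth1), ferritin light chain (Ftl1) and transferrin receptor (Tfrc), each of which carries iron-responsive elements. They were chosen by their gene symbol. All 3 symbols were found, among 13218 genes, and they had 11 of the 26827 transcripts listed: 1 of Fth1, 5 of Ftl1 and 5 of Tfrc. CIRS-seq was measured in lysates of E14 cells, a mouse embryonic stem cell (ESC) line. The protein was digested with Proteinase K, and RNA was then treated with dimethyl sulfate (DMS), with CMCT or with neither (non-treated, NT), with 2 biological replicates per treatment. Each DMS library pooled aliquots treated with 50, 100, 150 and 200 mM, each CMCT library pooled 10, 20, 25 and 50 mM, and the NT libraries were made from 0 mM aliquots. RNA-seq of ribosome-depleted RNA was measured in 1 library of the same line, without replicates.

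An iron-responsive element is a short hairpin with a conserved loop and a bulged or unpaired C below its upper stem. The iron regulatory proteins (IRP1 and IRP2, from Aco1 and Ireb2) bind it when iron is scarce. Bound to the 5′ UTR of a ferritin mRNA, they hold back translation of the protein that stores iron. Bound to the 3′ UTR of the Tfrc mRNA, they protect the mRNA of the receptor that takes up transferrin-bound iron. DMS modifies unpaired A and C, CMCT modifies unpaired U and G, and reverse transcriptase (RT) stops at modified bases, so that RT stops above those of the NT libraries mark accessible bases. Since Proteinase K came first, the RNA was read without its bound proteins.

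The elements were found as a C, 5 bases of any kind, the loop CAGTGN and 5 bases that pair with the 5 before the loop, with at least 4 pairs (Watson-Crick or G-U). The search was made on the strand of the transcript only. This pattern was found in 1462 of 26792 transcripts (5.46%), and with all 5 pairs in 223 (0.832%). It gave 1 element in the 5′ UTR of each ferritin and 4 in the 3′ UTR of Tfrc. They are shown because the element comparisons below rest on them. The letters are DNA of mm9 on the strand of the mRNA, 12 bases before and 12 after the loop, with the loop in capitals:
Fth1 (chr19:10057222-10057251, + strand, 5′ UTR): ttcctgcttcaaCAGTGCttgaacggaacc
Ftl1 (chr7:52715148-52715177, − strand, 5′ UTR): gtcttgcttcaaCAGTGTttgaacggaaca
Tfrc element 1 (chr16:32631305-32631334, + strand, 3′ UTR): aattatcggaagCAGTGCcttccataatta
Tfrc element 2 (chr16:32631684-32631713, + strand, 3′ UTR): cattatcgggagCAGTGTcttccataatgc
Tfrc element 3 (chr16:32631749-32631778, + strand, 3′ UTR): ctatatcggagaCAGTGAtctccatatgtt
Tfrc element 4 (chr16:32631796-32631825, + strand, 3′ UTR): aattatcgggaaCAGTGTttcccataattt

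The ferritin elements had 26 of 30 bases in common, and the 4 Tfrc elements had between 18 and 25 in common with each other. Between ferritin and Tfrc elements, 9 to 13 bases were the same. The Fth1 element lay at bases 30 to 59 of an mRNA of 866 bases, and that of Ftl1 at bases 78 to 107 of 968. The Tfrc elements began 882, 1261, 1326 and 1373 bases after the coding region, in an mRNA of 4890 bases. A further Tfrc hairpin, 823 bases after the coding region at chr16:32631246-32631275, had another loop and was found only after the sequence had been seen:
Tfrc variant-loop element: atttatcagtgaCAGAGTtcactataaata

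Summed over all listed transcripts, the 6 libraries had between 181944556 and 338201940 RT stops, so a position shared by isoforms is counted on each. With each genomic position once per gene, the range was 140186204 to 247369982. Even these exceed the number of reads that the paper gives for a treatment, so stop counts are not counts of separate reads. On Ftl1, only 14.3% of the measured positions of the chosen isoform had a following stretch of 25 bases found once in mm9, against 70.7% on Fth1 and 99.0% on Tfrc. The 30 bases of the Ftl1 element occurred 5 times in the genome and also on transcripts of the ferritin-like genes Gm10116 and Gm15590, so its stops cannot be assigned to Ftl1 alone. The other elements occurred once. On all 3 mRNAs, more positions had nearly equal counts in the replicates of a treatment than sampling alone would give. Other positions lay far apart, such as base 44 of Ftl1 with 8664 and 1124 stops in CMCT. At positions of Tfrc with at least 10 stops in the treatment, the replicate counts were within 1 of each other at 58.3% of positions for DMS, where sampling alone would give 27.3%. These values were 38.9% and 19.4% for NT and 33.1% and 21.5% for CMCT. On Fth1, 27.2% of positions were this close in NT (11.9% by sampling), 20.7% in DMS (18.8%) and 26.8% in CMCT (11.1%). The shares for Ftl1 were 26.9% in NT (14.8% by sampling), 23.8% in DMS (15.6%) and 26.9% in CMCT (4.14%). The share was thus above that of sampling in all 9 cases. The excess was smallest for DMS on Fth1 (62 of 299 positions), and no test was run on it. Of the positions with a stop that the chosen Tfrc isoform shares with another that holds the elements, 72.6% had the same DMS count in both when the replicates were summed, but only 37.3% had it in each replicate. These were 69.8% and 35.5% for CMCT, but 73.2% and 72.2% for NT. Between 2 Ftl1 isoforms, they were 86.2% and 84.3% for DMS, 86.6% and 62.4% for CMCT and 87.0% and 87.0% for NT, so that the drop was not seen for every mRNA and treatment. The study calls them biological replicates, and whether the replicate counts come from separate libraries at every position could not be settled from the files. The spread between replicates may be too small where they are so close, and p-values with it. In RNA-seq, the 7 pluripotency markers had 16.3 to 221 alignments per kilobase of exon, scaled to the library (per kb, as in RPKM), while the 5 fibroblast markers had at most 0.235, the 4 erythroid markers at most 0.735 and the 4 endoderm markers up to 3.10.

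Per length, Ftl1 had the most RT stops of the 3 genes in every library, followed by Fth1 and Tfrc. With each genomic position of a gene taken once, Ftl1 had 49.7 and 39.0 stops per base in the NT replicates, 47.9 and 53.7 in DMS, and 45.3 and 22.5 in CMCT. Fth1 had 6.18 and 3.56 stops per base in NT, 9.80 and 7.50 in DMS, and 10.1 and 5.96 in CMCT. The ranges of Ftl1 and Fth1 did not overlap over the 6 libraries. Tfrc had 0.597 and 0.417 stops per base in NT, 1.15 and 1.07 in DMS, and 0.992 and 0.753 in CMCT, below every value of Fth1. Among 7943 protein-coding genes, ranked by stops per base within a library, Ftl1 held places 127 to 330, Fth1 1045 to 1897 and Tfrc 3393 to 4896. Only 22.3% of the stops of Ftl1 fell on positions found once in the genome, against 63.7% for Fth1 and 99.4% for Tfrc. The level and places of Ftl1 thus include stops that cannot be assigned to it alone. In RNA-seq the order was the same, with 161 scaled alignments per kb for Ftl1, 46.8 for Fth1 and 39.3 for Tfrc. The gap between Fth1 and Tfrc was thus much narrower in RNA-seq than in RT stops per base, and with 1 RNA-seq library it has no replicate error.

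With treatment as the only term of the edgeR fit, the total RT stops of none of the 3 mRNAs passed the threshold for a change with either reagent. The question was whether an mRNA had more or fewer stops as a whole after treatment, relative to all genes. It was tested with edgeR's quasi-likelihood test on the stops per gene over all 13216 genes that passed the filter on low counts, with Benjamini-Hochberg adjustment. After DMS, 26.4% of genes passed the threshold of 0.05, and after CMCT 29.0%. The median log2 change over all genes was 0.0072 for DMS and 0.11 for CMCT, and with the size factors of DESeq2 the latter was 0.0087.

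Tfrc had 22.4 and 20.8 TMM-scaled CPM (counts scaled to library size) in NT, 35.6 and 34.3 in DMS, and 23.5 and 29.7 in CMCT. Both DMS values were above both NT values, and the log2 change of 0.69 (SE 0.28) had an adjusted p of 0.0836. The call depends on the fit: the Wald test of DESeq2 gave the same log2 change an adjusted p of 0.000375, and called 42.3% of all genes. With a replicate block in edgeR, the adjusted p was 0.0480. For CMCT against NT, the log2 change was 0.30 (SE 0.28, adjusted p = 0.461), with 0.11 without DMS replicate 2, 0.12 without CMCT replicate 2 and 0.46 without CMCT replicate 1.

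Ftl1 had 409 and 427 CPM in NT, 324 and 377 in DMS, and 235 and 195 in CMCT. All 4 treated libraries were below both NT libraries. The log2 change was −0.25 for DMS (SE 0.38, adjusted p = 0.653) and −0.96 for CMCT (SE 0.38, adjusted p = 0.0803). With DESeq2's Wald test, which called 37.4% of genes for CMCT, the adjusted p of the second was 0.00161. Without the 2 most counted positions of Ftl1, described below, the log2 changes were 0.07 for DMS and −0.52 for CMCT. At positions found once they were −0.72 and −1.42, and with the counts of all isoforms added up 0.063 and −0.60, so that neither size is steady. The positions found once include base 44, among the 2 most counted. It had 12297 and 8520 stops in NT, 5422 and 7827 in DMS, and 8664 and 1124 in CMCT. The DMS change was −0.15 without DMS replicate 1 and −0.51 without DMS replicate 2.

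Fth1 had 32.5 and 24.9 CPM in NT, 42.4 and 33.7 in DMS, and 33.7 and 33.0 in CMCT. Its log2 change was 0.41 for DMS (SE 0.30, adjusted p = 0.345) and 0.21 for CMCT (SE 0.30, adjusted p = 0.629). Both DMS values and both CMCT values lay above both NT values. The sizes moved with single libraries. For DMS the log2 change was 0.23 without DMS replicate 1 or NT replicate 2 and 0.61 when NT replicate 1 was left out. The CMCT change was 0.022 without DMS replicate 2, 0.035 without NT replicate 2 and 0.42 without NT replicate 1.

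RT stops were spread over the 3 mRNAs in different ways. Fth1 was densest in its coding region, with 7.99 and 4.59 stops per base in NT against 3.44 and 1.40 in the 5′ UTR and 1.90 and 1.90 in the measured 3′ UTR. Ftl1 was densest in the 5′ UTR, with 149 and 138 stops per base in NT, 96.3 and 147 in DMS, and 111 and 32.8 in CMCT. The last 25 bases of every mRNA carried no stops and were not measured. Tfrc had 2.33 and 1.75 stops per base in the 5′ UTR in NT, 0.747 and 0.514 in the coding region and 0.419 and 0.231 in the 3′ UTR.

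**Figure D1:**
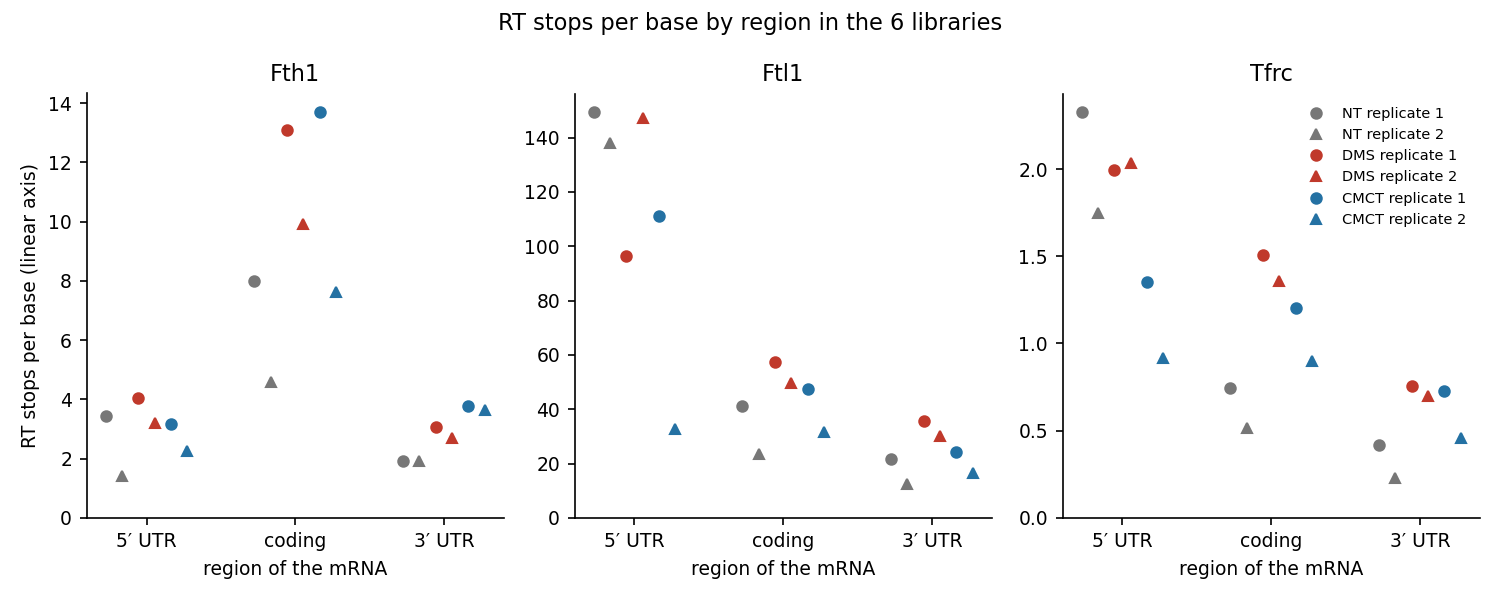
RT stops per base (linear axes, 1 panel per mRNA with its own scale) by region (5′ UTR, coding sequence, 3′ UTR) in the chosen isoform of Fth1, Ftl1 and Tfrc. Each point is 1 library (circles, replicate 1; triangles, replicate 2). Fth1 is densest in the coding region, and Ftl1 and Tfrc in the 5′ UTR, in all 6 libraries, but in CMCT replicate 2 the 5′ UTR lies close to the coding region for Ftl1 (32.8 and 31.5) and for Tfrc (0.914 and 0.899).

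The 5′ UTR of Ftl1 was dominated by bases 44 and 45, shortly before the element. Together they held 32.1% and 46.1% of the stops on the mRNA in NT, 14.6% and 30.1% in DMS, and 24.5% and 6.89% in CMCT. The lowest share, in CMCT replicate 2, and the highest, in NT replicate 2, lay far apart, and the DMS and CMCT replicates each differed widely. Base 62 was the most counted one of Tfrc, with 172 and 117 stops in NT, 105 and 94 in DMS, and 63 and 32 in CMCT. No base of Fth1 held more than 2.48% of the stops on its mRNA over the 6 libraries.

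The element of Fth1 had fewer RT stops per base than the rest of the mRNA in all 6 libraries. It held 50 and 18 stops in NT, 51 and 53 in DMS, and 30 and 26 in CMCT, over 30 bases. This is 1.67 and 0.600 stops per base in NT against 6.35 and 3.67 for the rest, 1.70 and 1.77 in DMS against 10.1 and 7.72, and 1.00 and 0.867 in CMCT against 10.5 and 6.15. The mean log2 ratio of element over rest was −2.55 ± 0.51 (SD, n = 6 libraries, exact two-sided sign-flip test, p = 0.03125, the smallest that 6 libraries allow). For comparison, 39.5% of all windows of 30 bases on Fth1 were below the rest in 6 of 6 libraries, and 23.9% above it. Every such window gets this same p, so the p does not set the element apart from them. The libraries span 3 treatments and share the position effects of RT and ligation, and the SD includes differences between treatments. These limits also hold for the sign-flip tests of Ftl1 and Tfrc below. The size of the difference was less common, since 53 of the 812 overlapping windows (6.53%) had a mean as low or lower. Against the rest of the 5′ UTR alone, the log2 ratio was −1.38, again lower in all 6 libraries.

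The Ftl1 element did not differ from the rest of its mRNA past the threshold. It held 1947 and 1622 stops in NT, 2211 and 2517 in DMS, and 2419 and 1295 in CMCT. Per base these were 64.9 and 54.1 in NT against 67.4 and 52.5 for the rest, 73.7 and 83.9 in DMS against 64.4 and 72.6, and 80.6 and 43.2 in CMCT against 60.5 and 29.2. The mean log2 ratio was 0.23 ± 0.23 (SD, n = 6, exact sign-flip p = 0.09375), with 5 of 6 libraries above 0. Windows above the rest in all 6 libraries made up 9.85% of this mRNA. The value rests on bases 44 and 45: without them it was 0.70 (exact p = 0.03125), and against the rest of the 5′ UTR, which holds them, −0.69 (exact p = 0.09375).

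The 4 Tfrc elements together held 41 and 37 stops in NT, 97 and 110 in DMS, and 51 and 42 in CMCT, over 120 bases. Per base this is 0.342 and 0.308 in NT against 0.636 and 0.411 for the rest, 0.808 and 0.917 in DMS against 1.16 and 1.05, and 0.425 and 0.350 in CMCT against 0.984 and 0.687. The mean log2 ratio was −0.69 ± 0.38 (SD, n = 6, exact sign-flip p = 0.03125), below 0 in all 6 libraries. Taken singly, elements 1 (mean log2 ratio −0.68) and 3 (−1.18) were below the rest in all 6 libraries, as were 38.6% of all windows of 30 bases on Tfrc. Elements 2 (−0.65) and 4 (−0.42) were below it in 5 of 6. Windows with a mean as low or lower made up 41.9%, 42.9%, 29.1% and 49.2% of the mRNA for elements 1 to 4, so that none of them stood apart from other windows. Against the rest of the 3′ UTR alone, the log2 ratio was −0.08 (exact p = 0.75). The whole 3′ UTR was less dense than the coding region in every library.

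**Figure D2:**
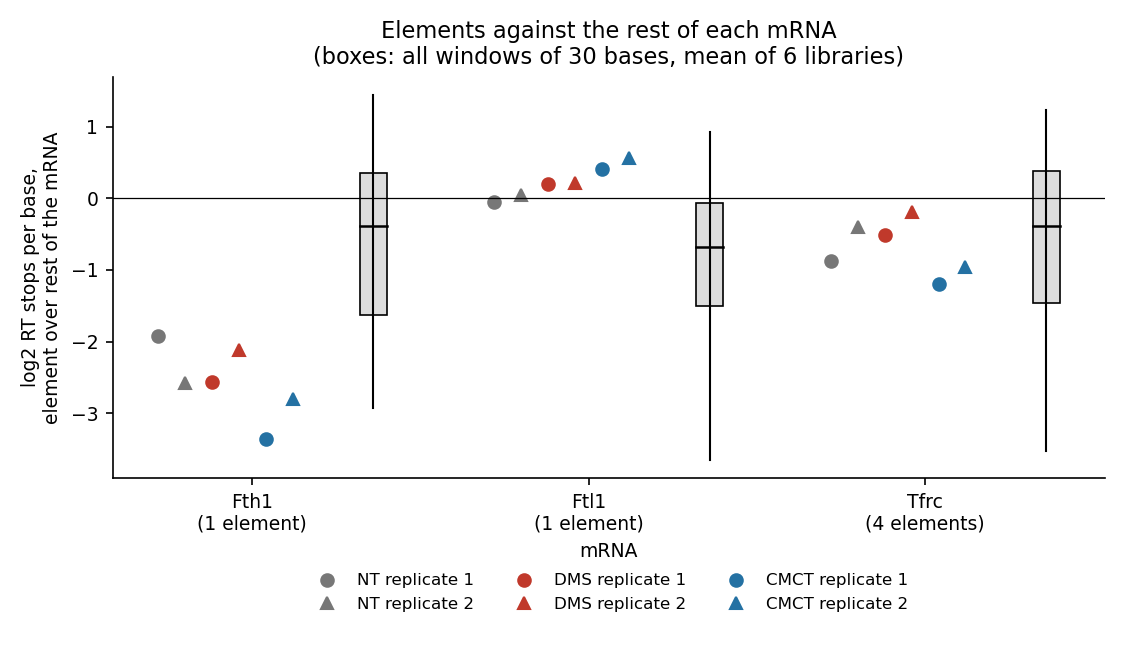
Log2 ratio of RT stops per base in the elements over the rest of the mRNA (y axis) for Fth1, Ftl1 and Tfrc, 1 point per library (circles, replicate 1; triangles, replicate 2). Boxes give the quartiles, their line the median and the whiskers the 5th to 95th percentile of the mean log2 ratio of all windows of 30 bases on the same mRNA. The points of Tfrc pool 4 elements (120 bases), so its box, of single windows, is not on the same footing. All 6 points of Fth1 lie between −3.37 and −1.92, those of Ftl1 between −0.05 and 0.56, and those of Tfrc between −1.20 and −0.19.

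The ratio of element over rest was next compared between treatments, where 2 against 2 libraries cannot give an exact permutation p below 0.333. For Fth1 the log2 ratio differed by −0.09 in DMS against NT (SD within treatments 0.40) and by −0.84 in CMCT (SD 0.43). For Ftl1 it differed by 0.21 in DMS (SD 0.05) and by 0.49 in CMCT (SD 0.09). For Tfrc it differed by 0.29 in DMS (SD 0.29) and by −0.44 in CMCT (SD 0.27). These differences moved with single libraries. Leaving out 1 library gave 0.045 (NT replicate 1) to 0.53 (NT replicate 2) for Tfrc in DMS, with 0.13 and 0.45 when a DMS replicate was left out, and −0.68 (NT replicate 1) to −0.20 (NT replicate 2) for Tfrc in CMCT. For Fth1 in CMCT it gave −1.17 (NT replicate 2) to −0.51 (NT replicate 1), with −0.56 when CMCT replicate 1 was left out. In CMCT, no value of either replicate overlapped those of NT in any of the 3 mRNAs, with exact permutation p = 0.333 for each. In DMS, this held for Ftl1 alone (exact permutation p = 0.333, against 1.0 for Fth1 and 0.667 for Tfrc). How many other windows separate in this way was not counted, so the non-overlap is not read as a result about the elements. These values depend on the bases counted. At the bases that CMCT prefers, the CMCT difference was 0.14 for Fth1, of the opposite sign, and 1.53 for Ftl1, and against the rest of the 5′ UTR that of Ftl1 was 1.36. Without bases 44 and 45, the Ftl1 differences were −0.16 for DMS and 0.0037 for CMCT.

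Within the Ftl1 element, the A at loop base 2 had the highest ratio of DMS over NT stops. It had 19 and 12 stops in NT and 292 and 393 in DMS. Both DMS libraries lay far above NT, and the log2 ratio of DMS over NT, with each mRNA scaled to the same mean, was 4.22, at place 21 of 943 measured positions. The other loop bases did not share this. The C at loop base 1 had 76 and 54 stops in NT and 72 and 66 in DMS. Loop bases 3 to 6, which are G, U, G and U, had 83, 86, 196 and 50 stops in NT replicate 1, and 22, 12, 23 and 14 in DMS replicate 1. Replicate 2 gave 71, 74, 187 and 47 stops in NT and 27, 24, 24 and 21 in DMS, so that these bases were lower with DMS in both.

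CMCT gave more stops than NT at those bases instead. Loop bases 3 to 6 of Ftl1 had 125, 217, 300 and 162 stops in CMCT replicate 1, and 84, 123, 205 and 91 in replicate 2. All 8 values were above those of NT, although Ftl1 as a whole had fewer stops with CMCT. The log2 ratio of CMCT over NT, scaled in the same way, was 1.77 at loop base 6 (place 116 of 943) and 1.48 at loop base 4 (place 155). At loop bases 3 and 5, both G, it was 0.83 and 0.79, at places 325 and 341, so that many other positions gained more. It was also above 0 at the A of loop base 2 (1.66), where CMCT gave 38 and 38 stops. Some U and G bases before the unpaired C stood out as well. Lower stem is used here for the bases outside the upper stem and the unpaired C by position only, since their pairing was not examined. The G at the start of the window had 88 and 56 stops in NT and 508 and 181 in CMCT, and the U 8 bases before the loop had 56 and 45 in NT and 370 and 120 in CMCT. The G next to the unpaired C did not share this, with 23 and 16 stops in NT and 9 and 6 in CMCT.

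In the upper stem of Ftl1, DMS gave stops above NT at some A bases. The A at base 10, counted with the first loop base as 1, had 17 and 17 stops in NT and 120 and 146 in DMS. The A at base 11, which ends the upper stem, had 6 and 9 in NT and 8 and 11 in DMS. The unpaired C had 3 and 13 stops in NT, but 24 and 218 in DMS, so its replicates differed widely. In the lower stem on the 3′ side, the A at base 15 had the most DMS stops in the window, 512 and 590, above 222 and 213 in NT. The other 4 bases of the upper stem on the 3′ side had at most 13 stops each in either DMS library.

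**Figure D3:**
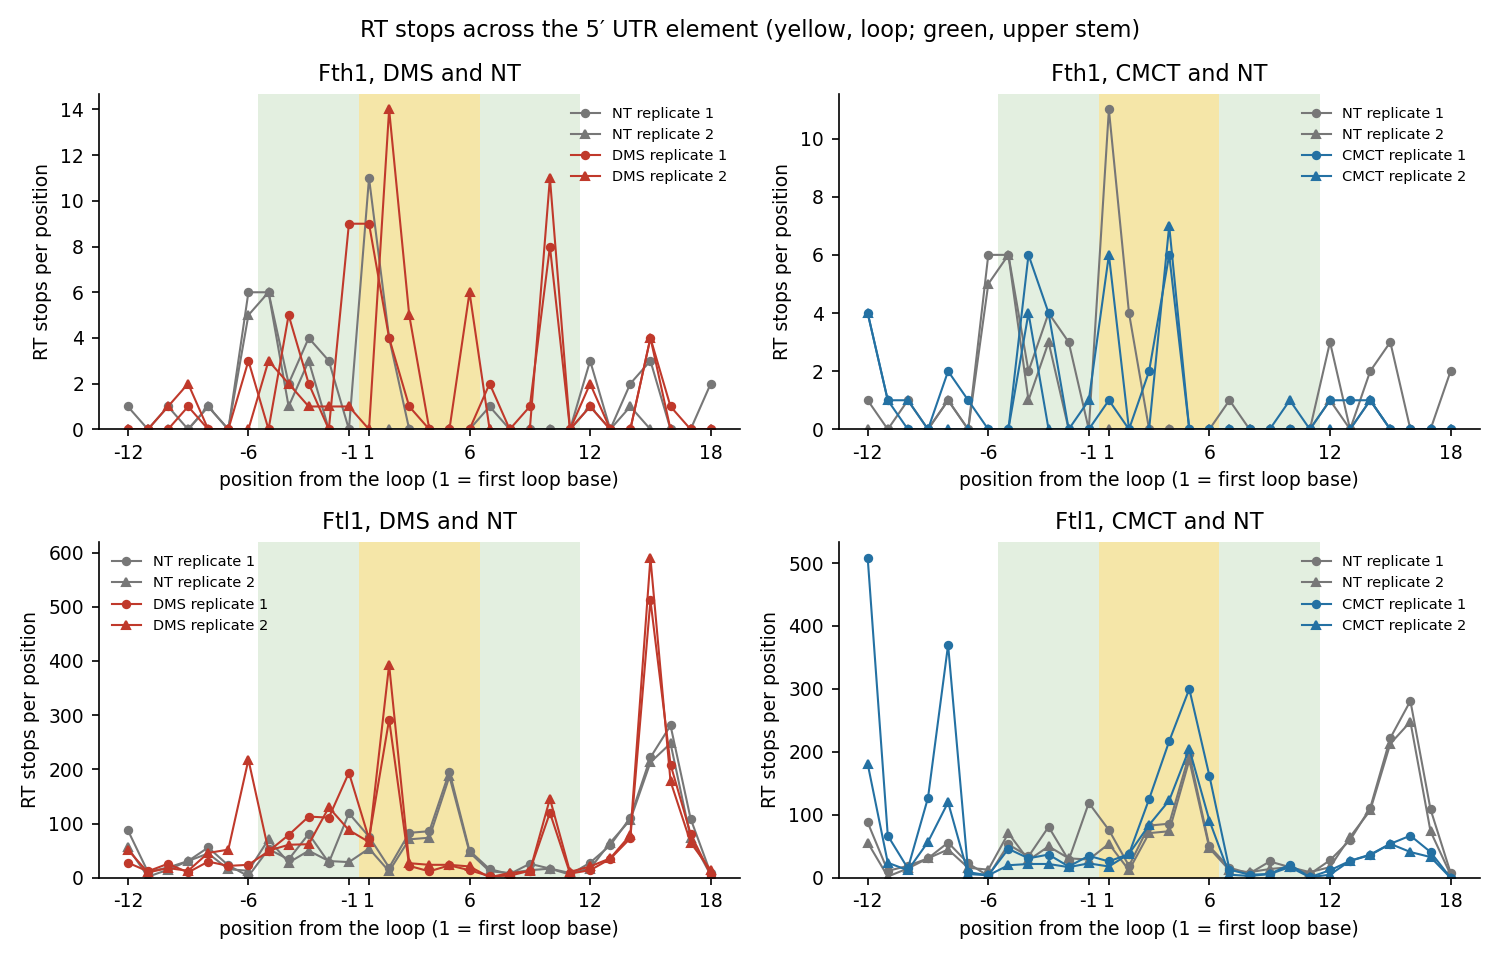
RT stops per position (linear y axes) across the 30 bases of the Fth1 and Ftl1 elements, by position from the first loop base (x axis, no position 0). Grey lines are NT, red DMS and blue CMCT, with circles for replicate 1 and triangles for replicate 2. Yellow marks the 6 loop bases and green the upper stem. In Ftl1, DMS gave 292 and 393 stops at loop base 2 and 512 and 590 at base 15, while in Fth1 no position has more than 14 stops in a library and the replicates differ at loop bases 1 and 2.

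The Fth1 element, with its single place in the genome, had few stops. Its A at loop base 2 had 4 and 0 stops in NT and 4 and 14 in DMS, so that replicate 1 did not differ. The A at base 10, the counterpart of the upper stem A in Ftl1, had 0 and 0 stops in NT and 8 and 11 in DMS. The U at loop base 4 had 0 and 0 stops in NT and 6 and 7 in CMCT, a log2 ratio of 3.14 that was at place 6 of 841 measured positions. The C at loop base 1 had 11 and 0 stops in NT, 9 and 0 in DMS, and 1 and 6 in CMCT. At this base the replicates of a treatment differed by as much as the treatments did. The unpaired C, which DMS marked in Ftl1, had 6 and 5 stops in NT and 3 and 0 in DMS.

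The Tfrc elements had between 69 and 108 stops each over the 6 libraries. Element 1 had 10 and 8 stops in NT, 29 and 30 in DMS, and 10 and 10 in CMCT. Element 2 had 7 and 6 in NT, 31 and 39 in DMS, and 14 and 11 in CMCT. In these elements, the lowest DMS value was 29 and the highest NT value 10. These are unscaled counts, and the whole mRNA also had more stops in DMS (5583 and 5092) than in NT (3058 and 1985). In element 2, the C that ends the window alone had 12 and 13 of the DMS stops, and 2 and 3 in NT. Element 3 had 9 and 2 in NT, 17 and 18 in DMS, and 12 and 11 in CMCT. Element 4 had 15 and 21 in NT, 20 and 23 in DMS, and 15 and 10 in CMCT, so that NT and DMS overlapped. The variant-loop element had the fewest, 3 and 2 in NT, 7 and 7 in DMS, and 5 and 3 in CMCT.

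**Figure D4:**
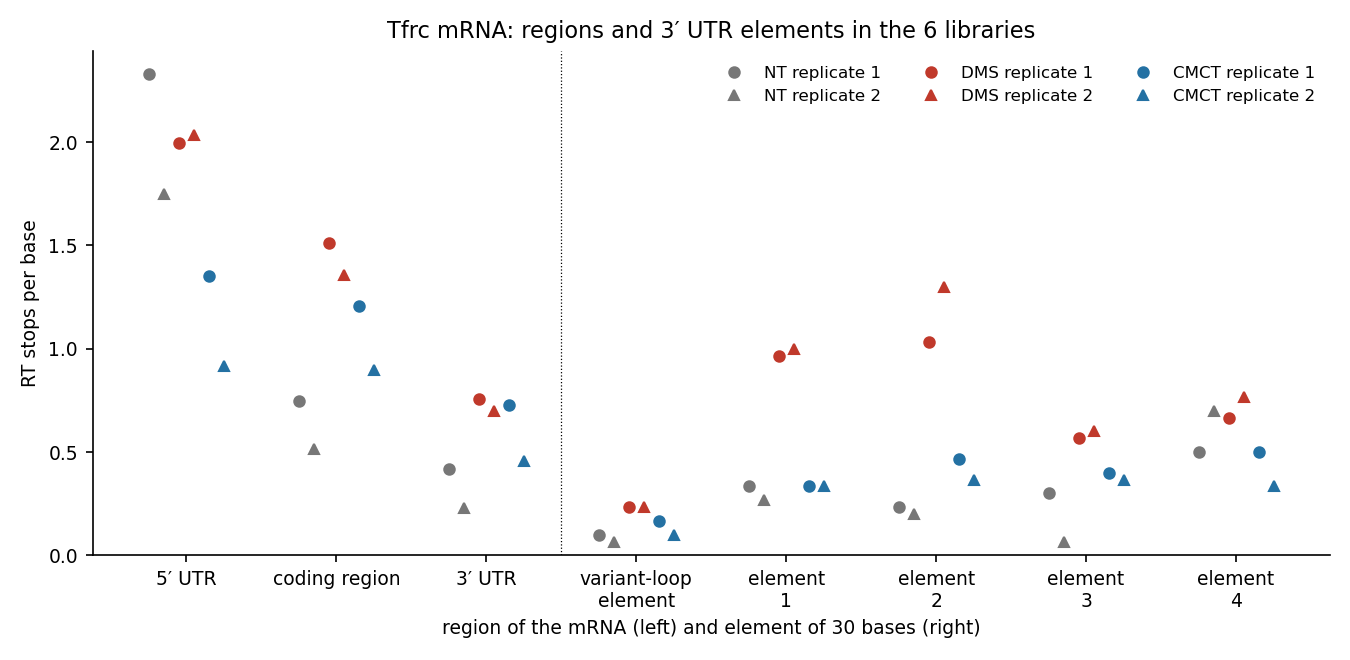
RT stops per base (y axis, linear) in the regions of the Tfrc mRNA (left of the dotted line; the 3′ UTR includes the elements) and in each of its 3′ UTR elements of 30 bases (right). Each point is 1 library (circles, replicate 1; triangles, replicate 2). In elements 1 and 2, DMS gave 0.967 to 1.30 stops per base and the NT libraries 0.200 to 0.333, while NT and DMS overlap in element 4.

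In the Tfrc elements, A bases had more DMS than NT stops in the loops, in the upper stems and in the lower stems. The 5 A bases of the 4 loops (loop base 2, and the last loop base of element 3) had 0 and 1 stops in NT and 3 and 8 in DMS. The A bases of the upper stems, all on the 5′ side, had 2 and 4 in NT and 7 and 9 in DMS. The 22 A bases of the lower stem sides had 5 and 9 in NT and 32 and 39 in DMS. Per base in DMS, this is 0.600 and 1.60 in the loops and 1.45 and 1.77 in the lower stems. The values of loops and lower stems thus overlapped. The loop of element 2 had no stop at any of its 6 bases in both NT and both DMS libraries, and at this depth no difference between loop bases could be detected there. The unpaired C had no stop in any of the 4 elements in any library. Of the 30 bases of a Tfrc element, between 9 and 14 had no stop in any library.

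Reactivity was then compared between loop and upper stem, to ask whether the loop bases, unpaired in a folded hairpin, were the more accessible. Each position was given the log2 ratio of treated over NT stops, scaled to the mean of the mRNA and bounded between 0 and 1, with the larger of the DMS and CMCT values used. In Ftl1, the 6 loop bases had a mean reactivity of 0.617 and 0.533 in the replicates, and the 10 upper stem bases 0.308 and 0.217. The loop was above the stem by 0.31 and 0.32. In Fth1, the loop had 0.302 and 0.814 and the stem 0.273 and 0.184, a difference of 0.029 in replicate 1 and 0.63 in replicate 2. Over the 4 Tfrc elements, the loops had 0.227 and 0.310 and the stems 0.286 and 0.236, with differences of −0.060 and 0.074 that went in opposite directions. The loops of Tfrc elements 1 to 4 held 9, 5, 9 and 10 treated stops over 4 libraries, and the 5 of element 2 all came from CMCT, so that no direction was read from a single element. No test was run on these differences. The Ftl1 difference came from CMCT: with CMCT alone it was 0.50, and with DMS alone −0.10.

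**Figure D5:**
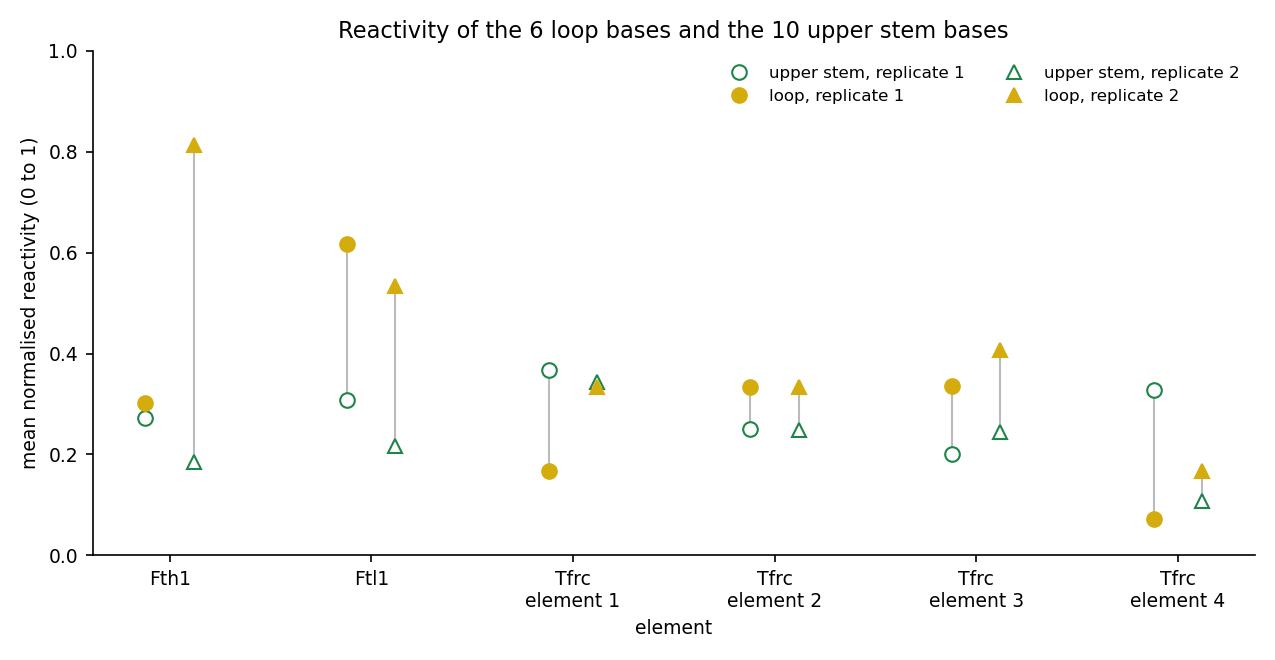
Mean normalised reactivity (y axis, 0 to 1, no unit) of the 6 loop bases (filled) and the 10 upper stem bases (open) of each element, for replicate 1 (circles) and replicate 2 (triangles). The loop lies above the stem in both replicates in Fth1 and Ftl1. The Tfrc elements are drawn singly, but their loops hold only 5 to 10 treated stops each.

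As a background, the same difference was taken at 470 matches of the pattern on mRNAs of 427 other genes with at least 1 treated stop per base. With both replicates summed, the median difference was 0.00 (quartiles −0.11 and 0.13), and the loop was above the stem at 43.0% of matches. Fth1 (0.30) and Ftl1 (0.33) were in the upper tail, as 7.45% and 5.74% of matches had a difference as large. Tfrc (−0.0042) was in the middle, with 54.3% of matches at or above it. The Tfrc value pools several elements, with 24 loop and 40 upper stem bases. Each match is a single stretch that fits the pattern, with 6 loop and 10 upper stem bases, as in Fth1 and Ftl1. The place of Tfrc among the matches is thus not on the same footing, and nothing was concluded from it. With all 5 pairs, the median over 62 matches was −0.0049. Whether the matches fold as hairpins was not examined. They also had fewer stops, with a median of 25 treated stops over the 470 matches. Fth1 had 61 in the loop and 62 in the upper stem, and Ftl1 2417 and 1613. The ferritins and the matches thus differ in depth.

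Along the whole mRNAs, a larger share of stops lay at A with DMS than in NT. In Tfrc, A bases, 28.7% of the measured positions, held 13.2% and 14.1% of the NT stops, 38.2% and 44.4% of the DMS stops and 17.1% and 19.2% of the CMCT stops. In Fth1, A held 10.4% and 12.4% of the stops in NT and 30.1% and 43.0% in DMS. In Ftl1, it held 7.76% and 10.4% in NT and 22.8% and 26.8% in DMS. All 3 mRNAs thus had a higher share at A in both DMS libraries than in both NT libraries. Other mRNAs were not counted for this, so it is not read as a trait of these 3. With CMCT, the share at U was higher in Tfrc, with 50.5% and 49.3% against 43.0% and 42.2% in NT, and in Fth1, with 36.2% and 37.3% against 31.8% and 35.0%. In Ftl1, the U share in CMCT, 46.8% and 34.0%, was not above that in NT, 47.4% and 58.6%. This rests on bases 44 and 45, which are both U. Without them, the share at U was 29.5% and 29.1% in CMCT against 22.6% and 23.2% in NT. At C, no mRNA had a clear gain with DMS. The share of stops at C was 46.8% and 39.1% in NT and 38.1% and 32.3% in DMS for Fth1, and 30.9% and 28.2% in NT and 23.5% and 21.1% in DMS for Tfrc. For Ftl1 the values overlapped, with 34.5% and 21.3% in NT and 36.8% and 25.2% in DMS.

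RNA-seq covered the elements unevenly. Counted by the middle of each alignment, the Fth1 element had 42 alignments, or 1.40 per base against 1.50 for the rest of the mRNA. The Tfrc elements had 141, or 1.18 per base against 1.54. The Ftl1 element had 858, or 28.6 per base against 5.93. The low RT stop density of the Fth1 element was thus not matched by a low RNA-seq density, in the 1 RNA-seq library measured.

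The other genes of iron metabolism were read from the same fit. Of 44 genes listed, 26 were in the files and tested. After DMS, 1 rose and 1 fell of the 26, where 13.8% and 12.5% of all genes did. After CMCT, 0 rose and 1 fell, where 15.0% and 13.9% did. The median log2 change of the list was −0.06 for DMS and 0.09 for CMCT. None of the 3 genes for the iron regulatory proteins and the turnover of IRP2 (Aco1, Ireb2 and Fbxl5) passed the threshold with edgeR in either comparison.

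With treatment as the only term of edgeR's fit and all 6 libraries, none of the tested mRNAs with other known elements passed it either. For those named next, this depends on the fit or the libraries used. Slc11a2, the divalent metal transporter, had a log2 change of −1.21 for DMS (adjusted p = 0.0797) and −0.75 for CMCT. The kinase gene Cdc42bpa had −1.06 (adjusted p = 0.0895) and −0.97, and the phosphatase gene Cdc14a −1.07 (adjusted p = 0.0935) and −0.73. Epas1, which encodes the hypoxia factor HIF-2α, had 0.92 (adjusted p = 0.107) and 0.56, all in edgeR. In NT, Slc11a2 had 587 and 790 CPM, Cdc42bpa 244 and 366, Cdc14a 309 and 428, and Epas1 205 and 275. Tfrc had 22.4 and 20.8. In RNA-seq they had only 2.04, 1.17, 0.180 and 0.816 scaled alignments per kb in this order, against 39.3 for Tfrc. Whether their stops come from these mRNAs was not tested. Where only bases with a unique following sequence were counted, Epas1 had −0.76 for DMS (edgeR adjusted p = 0.119). With DESeq2's Wald test, Epas1 passed for DMS (0.91, adjusted p = 0.0291), while Cdc42bpa (adjusted p = 0.0648) and Cdc14a (adjusted p = 0.0633) did not. Without either CMCT replicate, Slc11a2, Cdc42bpa and Cdc14a passed for DMS, with adjusted p of 0.0290 to 0.0394 in edgeR. For CMCT, the log2 changes without CMCT replicate 1 were −1.50 for Slc11a2, −1.69 for Cdc42bpa and −1.43 for Cdc14a, and all 3 passed (edgeR adjusted p = 0.0390, 0.00946 and 0.0303). Without CMCT replicate 2 they were −0.26, −0.50 and −0.26. The CMCT changes of these mRNAs thus rest on which CMCT library is used. That of Epas1 was 0.24 without CMCT replicate 2. The comparisons share their NT libraries.

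Hfe, which encodes a partner of the transferrin receptor, fell by 1.25 with DMS (SE 0.31, adjusted p = 0.0102) and by 1.08 with CMCT (SE 0.31, adjusted p = 0.0205) on the log2 scale in edgeR. Only 1.51% of its 4969 stops fell on bases whose following sequence is unique in mm9, and RNA-seq had 8 alignments on it. At those bases the log2 changes were larger, −1.96 for DMS and −1.54 for CMCT, with adjusted p of 0.124 and 0.177 in edgeR. Without NT replicate 2, the log2 changes were −0.69 for DMS (adjusted p = 0.150) and −0.52 for CMCT (adjusted p = 0.291). The call for DMS was also lost without DMS replicate 1 (−1.39, adjusted p = 0.0670). That for CMCT was lost without CMCT replicate 2 (−0.95, adjusted p = 0.0750) and with DESeq2's size factors (−1.20, adjusted p = 0.0510). Slc39a14, a transporter of zinc and iron that was named after its values were seen, rose by 0.94 with DMS (SE 0.29, adjusted p = 0.0318, edgeR). At the positions found once, which held 29.6% of its stops, the log2 change was −0.52 (adjusted p = 0.153, edgeR). Its log2 change was 0.66 without NT replicate 1 (adjusted p = 0.159), 0.97 without DMS replicate 1 (adjusted p = 0.109) and 0.79 without DMS replicate 2 (adjusted p = 0.123). It was 0.93 both with the counts of all isoforms added up (adjusted p = 0.0537) and with DESeq2's size factors (adjusted p = 0.0641), so that the call was lost though the size was kept.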

How the data were processed

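CIRS-seq was read in 6 libraries, 2 each of NT, DMS and CMCT, and RNA-seq in 1. The deposited CIRS-seq values are raw counts of RT stops per transcript position, which the authors made by mapping reads to mm9 with the single-nucleotide variants of E14 and GENCODE vM1 transcripts. The submitters' processing notes name Bowtie 1.0.0, TopHat2 2.0.6, FastQC 0.10.1 and bedtools 2.17.0. How reads with several places were treated is not given in the sources used here. RNA-seq was deposited as 1 line per alignment of 50 bases on mm9, and 22286799 of 31857551 alignments had their middle in the exons of 1 gene. Sums of the replicates were deposited too and were not used.

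The members, lists and tests were chosen with earlier results of these data known. The isoform taken was the protein-coding one with the most elements, then the longest. Iron genes were given by counts, and named where they passed the test in both treatments or carry a known element. Per-gene counts, with the highest count over isoforms at each genomic position, were tested with edgeR 4.0.16 (TMM, filterByExpr, quasi-likelihood, adjusted p below 0.05) in R 4.3.3, over all 6 libraries. On simulated data for 13214 genes, it recovered 9% of 2-fold and 89% of 4-fold changes for DMS, and 15% and 86% for CMCT. DESeq2 1.42.0 was an alternative. Element densities used a pseudocount of 0.5 stops, an exact two-sided sign-flip test over libraries, and an exact permutation test between treatments. Reactivity used a pseudocount of 1 and was limited at the 90th percentile, with treated positions at 0 stops set to 0. Single counts carry counting error only, and nothing else was added for it. 1 gene of the iron list is not reported here by name.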

Additional observations from a re-analysis of the deposited data

How the results depend on the processing

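The Fth1 element against the rest kept its direction in all that were run, and leaving out 1 library gave −2.68 to −2.39, with the smallest p that 5 libraries allow (exact, 0.0625). For Tfrc this gave −0.79 to −0.59 at the same p, with −0.081 against the rest of the 3′ UTR and −1.29 with windows of 18 bases. For Ftl1, leaving out 1 library gave 0.16 to 0.29, the rest of the 5′ UTR −0.69, a window of 18 bases −0.046, each genomic position once over all isoforms 0.67 (exact p = 0.03125), and leaving out bases 44 and 45 gave 0.70 (exact p = 0.03125). Why these differ was not tested.

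The DMS change of the element ratio turned in sign for Fth1 against the rest of the 5′ UTR (0.082), without positions of close replicate counts (0.66), and without NT replicate 1 or DMS replicate 1 (range −0.42 to 0.24). For Ftl1 it turned without close counts (−0.061) and without bases 44 and 45 (−0.16), and for Tfrc with 18 bases (−0.18). The CMCT change of Fth1 was 0.14 at the bases that CMCT prefers. The Ftl1 loop difference was 0.35 with a pseudocount of 5, 0.29 with the percentile over positions above 0, 0.53 for the middle loop bases and unpaired C, −0.10 with DMS alone and 0.50 with CMCT alone. That of Tfrc had a mean of 0.0072 and no steady sign, from −0.060 to 0.074 over the replicates, and −0.12 for the middle bases. Leaving out bases 44 and 45, leaving out close counts and the variant-loop element were chosen after seeing the data, as was adding up isoforms for the element ratio.

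Genes called for DMS numbered 5593 with DESeq2's Wald test, 955 at positions found once in the genome and 1719 to 4619 without 1 library; for CMCT these were 581 at positions found once and 1600 to 4402 without 1 library. Leaving out NT replicate 2 gave the lowest counts, 1719 and 1600. The DMS count was 1903 when DMS replicate 1 was left out, and the CMCT count 2503 when NT replicate 1 was. Per gene, Fth1 was −0.066 for CMCT at positions found once, Slc39a14 −0.52 for DMS there, and Ftl1 for DMS 0.063 with isoforms added up and 0.069 without bases 44 and 45. The deviations of same-numbered replicates had correlations of 0.553 (NT and DMS), 0.0101 (NT and CMCT) and −0.107 (DMS and CMCT). The numbers were not taken as pairs, since this did not hold for every pair of treatments and no label names a shared batch, but NT and DMS may be paired. A replicate block called 5616 genes for DMS and 5030 for CMCT and gave Tfrc an adjusted p of 0.0480 for DMS (edgeR). With it Slc11a2 (0.0216), Cdc42bpa (0.0191) and Cdc14a (0.0209) passed for DMS, and Cdc42bpa (0.0325) for CMCT, all as adjusted p. No value was given for the Ftl1 element at positions found once, since it holds none.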
